A study of Rattus norvegicus with 6 samples.

Results

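The 9 p53 pathway genes described here are Cdkn1a, Btg2, Mdm2, Ccng1, Aen, Bax, Bbc3, Phlda3 and Tp53inp1, well-known transcriptional targets of p53. They were chosen by name, with earlier results of these data known. Their rows were taken from the deposited gene count table of 43035 features. A row was included if its gene name was one of the 9, or if it was an unannotated row, a transcript that the authors had added without a gene name, and it overlapped one of the 9 genes on the same strand. Of the 9 genes, 8 had a row under their own name and 4 unannotated rows overlapped one of them, giving 12 rows, of which 8 rows for 7 genes had enough counts to be tested. No row carried the name Bbc3 (PUMA, which promotes cell death as a BH3-only protein of the BCL2 family), and it was not analysed here.

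p53 is a transcription factor that is kept scarce in unstressed cells by MDM2, the ubiquitin ligase that marks it for degradation. DNA damage and other stresses release p53 from MDM2, and p53 then raises genes that halt the cell cycle, repair DNA or trigger apoptosis, among them Mdm2 itself, which closes a negative feedback loop. In cardiomyocytes the pathway is known for its part in withdrawal from the cell cycle and in cell death after injury.

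The libraries came from cardiomyocytes of Sprague-Dawley rats of postnatal day 1, kept in primary culture and transfected with siRNA against the kinase DYRK1A (si-DYRK1A) or with a scrambled siRNA (si-NC), and RNA was collected 48 h later. Each group had 3 libraries, which the labels call biological replicates without saying whether they came from separate cell preparations. No untransfected cells were included, so that both groups carry the effects of transfection. The study used the comparison to ask how loss of DYRK1A alters the transcriptome of cardiomyocytes, and here it is read for the p53 pathway. The libraries held 10325074 to 11921772 counts in si-NC and 10703229 to 11723974 in si-DYRK1A. The annotated row of Dyrk1a held 0 to 3 counts in every library. The unannotated row that spans it held 777, 919 and 968 counts in si-NC and 971, 851 and 944 counts in si-DYRK1A, a log2 fold change of 0.08 (95% confidence interval -0.04 to 0.20, edgeR adjusted p = 0.374). The transcript that the siRNA targets therefore did not fall in the group labelled si-DYRK1A, so that these counts do not check the labels, and each direction is given as labelled. The study reported knockdown of DYRK1A in such cultures from immunoblots of the protein, which was not analysed here.

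Of the 8 tested rows of the p53 pathway genes, 4 were higher in the libraries labelled si-DYRK1A and 0 were lower by the quasi-likelihood test of edgeR, at an adjusted p below 0.05 over all 15513 features tested. These were the unannotated row across Cdkn1a, the unannotated row across Tp53inp1, Ccng1 and Btg2, with fold changes of 1.65, 1.25, 1.13 and 1.11. Among all features tested, 15.2% were called in either direction, 8.03% as higher and 7.19% as lower. All 8 log2 fold changes of the p53 pathway rows were above 0, with a median of 0.16, beside 50.4% above 0 and a median of 0.002 over all features. Since earlier results of these data were known when the genes were chosen, the comparisons with all features here are description and no test. In 5 of the 8 rows every library labelled si-DYRK1A lay above every si-NC library, as it did in 16.2% of all features. Because abundant features are called more often, the 5 rows of at least 100 CPM (counts scaled to library size) may be read against the 2112 features of that level, a limit chosen after the values were seen. Of these 5 rows, 3 were called and 4 did not overlap between the groups, whereas 15.9% of the abundant features were called as higher and 24.1% lay wholly above si-NC. Together the 12 rows took 0.2271% to 0.2323% of the counts in si-NC and 0.2508% to 0.2613% in the libraries labelled si-DYRK1A.

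**Figure D1:**
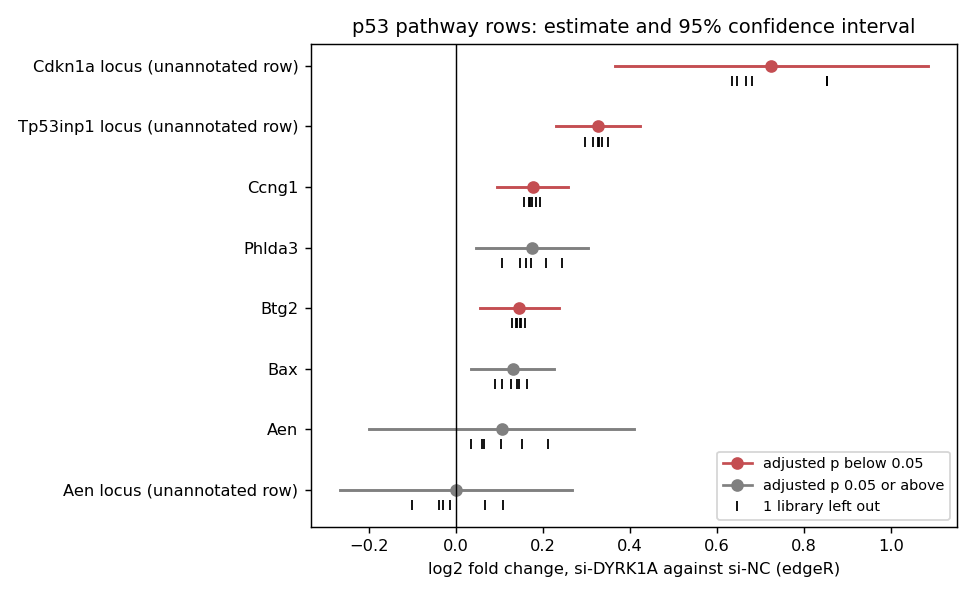
Log2 fold change of each tested p53 pathway row between the libraries labelled si-DYRK1A and si-NC (point, edgeR) with its 95% confidence interval (line), in red where the adjusted p was below 0.05, and the estimate with each library left out in turn (ticks). The estimates run from 0.001 for the unannotated row across Aen to 0.72 for the unannotated row across Cdkn1a, and the ticks lie on both sides of 0 only for the unannotated row across Aen.

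Upstream sequences were available for 6 of the 9 genes, from RefSeq in the rat build GRCr8, which is not the build of the counts. The windows ran from 250 bases before to 50 after the annotated start, and were searched for the p53 decamer, the 10-base element of which a full p53 response element holds a pair. The decamer reads the same on both strands, so that 1 search covers both. It was present in 3 of the 6 windows, those of Cdkn1a, Aen and Ccng1, and in 7.98% of all 33469 windows. Directly beside it, each of the 3 windows held a second stretch with at most 2 mismatches to the decamer, an arrangement found in 0.454% of all windows (the limit on mismatches was chosen after the sequences were seen). A pair of perfect decamers 0 to 13 bases apart was found in 0 of the 6 windows and in 0.0598% of all windows. The 250 bases upstream of the start are shown for these 3 genes, 5′ to 3′ on the strand of the gene, because they place the element beside the genes whose counts follow. Capitals mark the decamer.
Cdkn1a (chr20:7150682-7150931, plus strand): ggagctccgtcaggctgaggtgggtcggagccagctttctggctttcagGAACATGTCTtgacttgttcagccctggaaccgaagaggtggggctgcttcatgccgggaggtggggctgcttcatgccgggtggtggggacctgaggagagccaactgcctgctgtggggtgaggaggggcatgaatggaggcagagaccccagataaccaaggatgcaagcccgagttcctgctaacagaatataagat
Ccng1 (chr10:25684877-25685126, minus strand): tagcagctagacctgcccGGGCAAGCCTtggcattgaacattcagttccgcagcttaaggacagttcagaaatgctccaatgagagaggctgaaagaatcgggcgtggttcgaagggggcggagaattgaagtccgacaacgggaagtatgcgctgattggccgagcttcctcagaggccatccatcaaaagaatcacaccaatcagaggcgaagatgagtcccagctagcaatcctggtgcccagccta
Aen (chr1:142224283-142224532, plus strand): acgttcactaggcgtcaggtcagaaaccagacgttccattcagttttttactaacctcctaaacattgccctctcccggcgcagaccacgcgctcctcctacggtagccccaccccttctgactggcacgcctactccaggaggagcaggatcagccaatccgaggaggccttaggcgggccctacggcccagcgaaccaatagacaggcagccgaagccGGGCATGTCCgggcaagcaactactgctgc

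In the Cdkn1a sequence the decamer begins 201 bases before the start, and the 10 bases after it have 1 mismatch. In Ccng1 it begins 232 bases before the start, and the 10 bases before it have 1 mismatch. In Aen it begins 30 bases before the start, and the 10 bases after it have 2 mismatches. The windows of Mdm2, Phlda3 and Btg2 did not hold these letters. A match describes the sequence alone, and p53 binding was not measured in these libraries. Of the 3 genes shown, Ccng1 and the unannotated row across Cdkn1a were called as higher, whereas neither row of Aen was. The row across Cdkn1a starts 45008 bases upstream of the annotated gene, so the sequence shown need not lie at the start of that row.

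Among the genes that halt the cell cycle, transcripts across Cdkn1a and Btg2 were higher in the libraries labelled si-DYRK1A. Cdkn1a encodes p21, an inhibitor of cyclin-dependent kinases and a main effector of arrest by p53. Its annotated row (ENSRNOG00000000521, 20:6351458-6358864 of Rnor_6.0, plus strand) was nearly empty, with 0, 0 and 1 counts in si-NC and 0, 1 and 0 in si-DYRK1A, and was not tested. The unannotated row on its strand (20:6306450-6358864) starts 45008 bases upstream, ends at the same base and held 551 counts over the 6 libraries, against 2 for the annotated row. It also covers the whole of another annotated gene, Rn60_20_0064.1, which had 0 counts of its own, so that its counts cannot be assigned to Cdkn1a alone.

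The unannotated row across Cdkn1a had 76, 64 and 70 counts in si-NC and 125, 120 and 96 in the libraries labelled si-DYRK1A. These were 7.29, 5.41 and 5.85 CPM against 10.99, 11.3 and 8.31 CPM, with means of 6.18 ± 0.980 and 10.2 ± 1.65 (SD, n = 3 libraries each). The groups did not overlap, with the third si-DYRK1A library closest to si-NC. The log2 fold change was 0.72 (SE 0.173, 95% confidence interval 0.37 to 1.08, edgeR adjusted p = 0.00565), the largest of the p53 pathway rows and also the least precise of those called. The exact permutation test gave p = 0.1, the smallest that 3 libraries against 3 allow. The call was lost only when FPKM values, which are counts scaled by transcript length and library, were tested with limma (0.51, adjusted p = 0.0706, with 1 added to the FPKM, and 0.69, adjusted p = 0.0697, with 0.1 added).

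Btg2, which encodes an antiproliferative protein of the BTG/TOB family, had 2012, 2281 and 2259 counts in si-NC and 2429, 2210 and 2474 in the libraries labelled si-DYRK1A (ENSRNOG00000003300, 13:50913180-50916982, minus strand). Its levels were 192.9, 192.9 and 188.9 CPM against 213.6, 208.1 and 214.1 CPM. The spread within each group was small beside the gap between them, with means of 191.6 ± 2.32 and 212.0 ± 3.34 CPM (SD, n = 3). The log2 fold change of 0.15 (SE 0.0439, 95% confidence interval 0.05 to 0.24) passed the test at an edgeR adjusted p = 0.0264. This call was the least stable of the 4, since it was lost in 10 of 17 alternatives, 5 of them with 1 library left out, with an adjusted p of 0.103 without si-DYRK1A replicate 3, 0.0793 without si-DYRK1A replicate 1, 0.0629 without si-DYRK1A replicate 2, and 0.0737 and 0.0759 without replicates 1 and 3 of si-NC. The estimate itself stayed between 0.12 and 0.16.

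**Figure D2:**
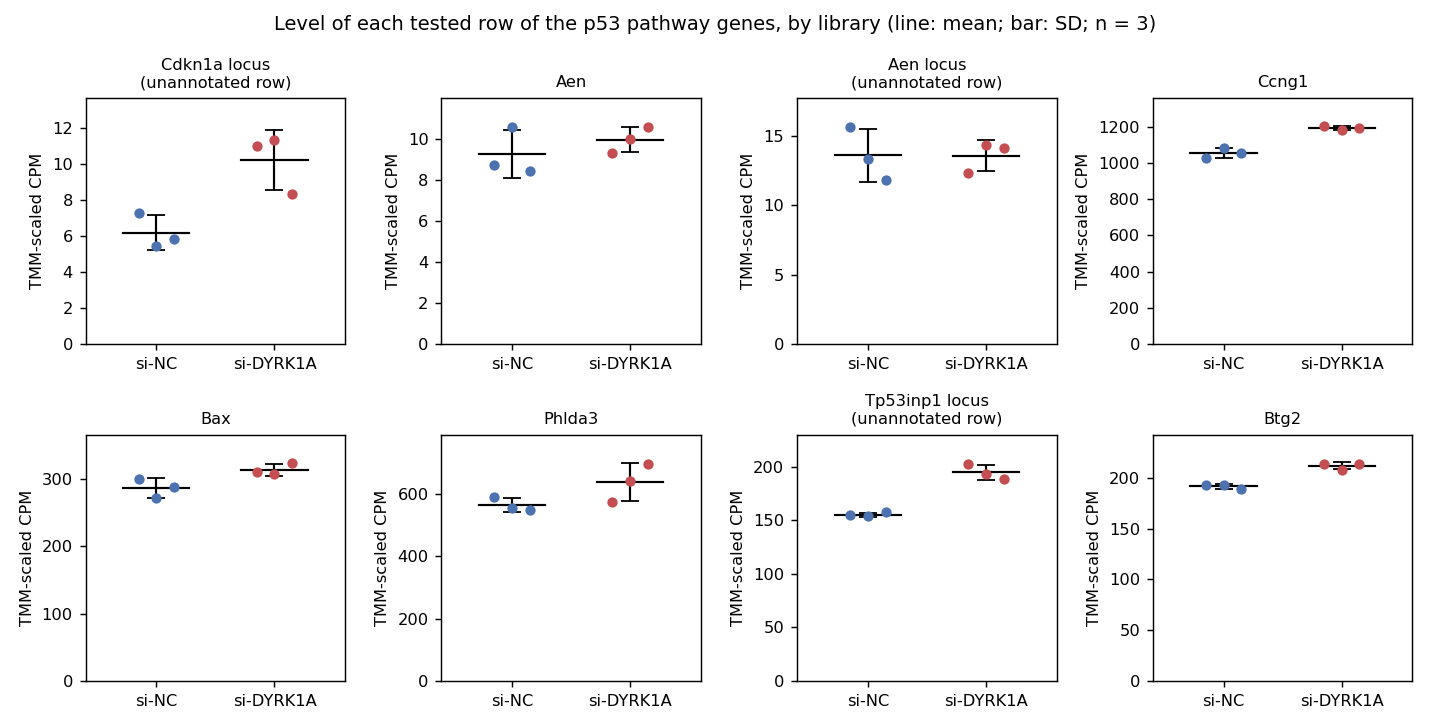
Level of each tested p53 pathway row in CPM, scaled by the TMM factors of edgeR, in the 3 si-NC libraries (blue) and the 3 libraries labelled si-DYRK1A (red); long lines are means, bars are SD, each vertical axis starts at 0 and has its own scale. The groups do not overlap for the unannotated row across Cdkn1a, Ccng1, Bax, the unannotated row across Tp53inp1 and Btg2, and they overlap for Phlda3 and both rows of Aen.

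Of the genes that feed back on p53, Ccng1 was higher and Mdm2 could not be measured. The annotated row of Mdm2 (ENSRNOG00000006304, 7:60719066-60743328, minus strand) was listed at 0 in all 6 libraries. The unannotated row that covers it (7:60718542-60743393) had 1, 1 and 3 counts in si-NC and 2, 6 and 3 in the libraries labelled si-DYRK1A. With 16 counts in all and overlapping groups, a difference in Mdm2 was not detectable at this depth.

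Ccng1 encodes cyclin G1, which recruits a phosphatase that acts on MDM2. It was the p53 pathway gene with the most counts, 10732, 12818 and 12615 in si-NC and 13688, 12548 and 13797 in the libraries labelled si-DYRK1A (ENSRNOG00000003256, 10:25903911-25910325, minus strand). Its levels were 1029, 1084 and 1055 CPM in si-NC, and 1204, 1182 and 1194 CPM in si-DYRK1A. Every library labelled si-DYRK1A lay above every si-NC library, and the means of 1056 ± 27.5 and 1193 ± 11.2 CPM (SD, n = 3) differed by a factor of 1.13. The log2 fold change was 0.18 (SE 0.0391, 95% confidence interval 0.09 to 0.26, edgeR adjusted p = 0.00324), and it passed the test in all 17 alternatives, with an adjusted p of at most 0.0333.

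The nuclease gene Aen did not pass the test in either of its rows. Aen encodes an exonuclease that takes part in DNA fragmentation during apoptosis. Its annotated row (ENSRNOG00000018421, 1:140584380-140593745, plus strand) had 91, 125 and 101 counts in si-NC and 106, 106 and 122 in the libraries labelled si-DYRK1A, or 9.25 ± 1.16 against 9.95 ± 0.618 CPM (SD, n = 3). The log2 fold change was 0.11, with a 95% confidence interval of -0.20 to 0.41 and an edgeR adjusted p = 0.702, and it ran from 0.03 without si-NC replicate 3 to 0.21 without si-NC replicate 2. An unannotated row (1:140584327-140594884) covers the same gene and extends 1139 bases past its end.

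This unannotated row across Aen had 163, 158 and 141 counts in si-NC and 140, 152 and 163 in the libraries labelled si-DYRK1A, with means of 13.59 ± 1.93 and 13.58 ± 1.10 CPM (SD, n = 3). The order of the libraries was mixed, and the log2 fold change of 0.001 (95% confidence interval -0.26 to 0.27, edgeR adjusted p = 0.997) changed sign in 10 of 16 alternatives. The unannotated row took 58.48% of the counts of both rows. How reads shared by overlapping rows were assigned is not given in the sources used here, so that the split between them is uncertain. When the counts of both rows were added, the log2 fold change of Aen was 0.04 (edgeR adjusted p = 0.849).

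**Figure D3:**
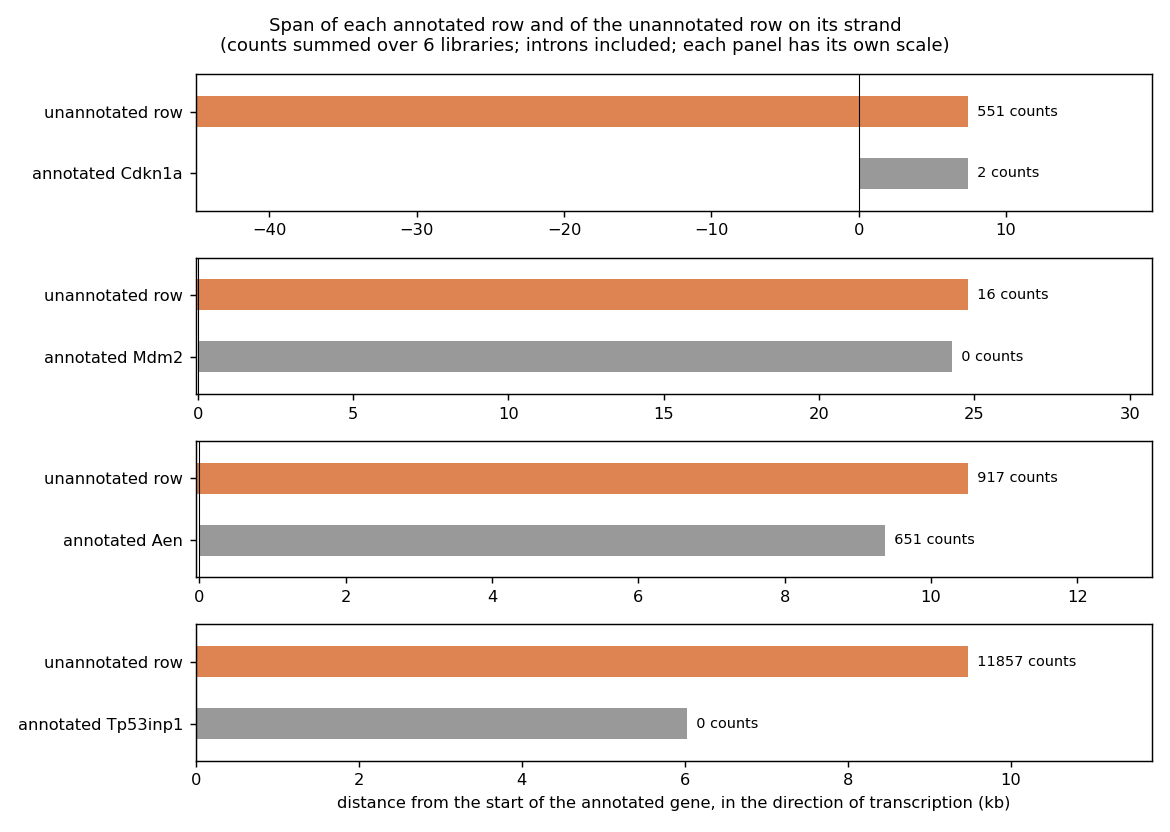
Span of the annotated row (grey) and of the unannotated row on the same strand (orange) at 4 p53 pathway loci, in kb from the start of the annotated gene in the direction of transcription, with introns included and the counts summed over 6 libraries written beside each bar; each panel has its own scale. At Cdkn1a, Mdm2 and Tp53inp1 the annotated row holds 2, 0 and 0 counts and the unannotated row 551, 16 and 11857, whereas at Aen both rows hold counts, 651 and 917.

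Bax, which encodes the BCL2 family protein that permeabilises the outer mitochondrial membrane in apoptosis, was not called. It had 3137, 3217 and 3445 counts in si-NC and 3528, 3268 and 3746 in the libraries labelled si-DYRK1A (ENSRNOG00000020876, 1:101451802-101457207, minus strand). The levels of 300.8, 272.0 and 288.1 CPM in si-NC and 310.3, 307.7 and 324.2 CPM in si-DYRK1A did not overlap, although the highest si-NC library, the first, came close to the lowest of si-DYRK1A. The log2 fold change was 0.13 (SE 0.0462, 95% confidence interval 0.03 to 0.23), and its edgeR adjusted p = 0.0612 missed the threshold, as did the p of each of the 17 alternatives.

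Phlda3 encodes a pleckstrin homology protein that keeps AKT from the membrane and so restrains survival signalling. It had 6155, 6569 and 6558 counts in si-NC and 6545, 6798 and 8049 in the libraries labelled si-DYRK1A (ENSRNOG00000009068, 13:52588917-52592001, plus strand). Its levels were 590.2, 555.5 and 548.3 CPM in si-NC and 575.6, 640.1 and 696.6 CPM in si-DYRK1A. The first si-DYRK1A library lay within the range of si-NC while the other two lay above it, and the SD of 60.5 CPM in si-DYRK1A was larger than that of 22.4 CPM in si-NC. Its log2 fold change of 0.18 (SE 0.0600, 95% confidence interval 0.05 to 0.30) was close to that of Ccng1 but had an edgeR adjusted p = 0.0697. It was called by DESeq2 (adjusted p = 0.0399), by edgeR with no filter on low counts (adjusted p = 0.00328) and without si-DYRK1A replicate 1 (log2 fold change 0.24, adjusted p = 0.00362). Without si-DYRK1A replicate 3, the highest library, the log2 fold change of Phlda3 was 0.11 (adjusted p = 0.263).

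Tp53inp1 encodes a stress protein that takes part in apoptosis and autophagy, and its locus gave the smallest p of the p53 pathway genes. The annotated row (ENSRNOG00000007964, 5:24410863-24416888, plus strand) was listed at 0 in every library, and the unannotated row with the same start (5:24410863-24420337) extends 3449 bases past its end. The unannotated row had 1620, 1816 and 1881 counts in si-NC and 2307, 2049 and 2184 in the libraries labelled si-DYRK1A. Its levels were 155.3, 153.6 and 157.3 CPM in si-NC and 202.9, 192.9 and 189.0 CPM in si-DYRK1A.

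The 3 si-NC libraries were thus within a few CPM of each other and all 3 libraries labelled si-DYRK1A lay clear of them, with means of 155.4 ± 1.85 and 195.0 ± 7.16 CPM (SD, n = 3). The log2 fold change at Tp53inp1 was 0.33 (SE 0.0465, 95% confidence interval 0.23 to 0.42, edgeR adjusted p = 3.65e-05), a rise of 25.5%. It passed the test in every alternative, and since this row covers no other annotated gene, its counts could be added to those of Tp53inp1, which gave 0.32 (adjusted p = 3.55e-05). With such sums for all genes, 8.01% of 15074 features were called as higher, and 4 p53 pathway rows were again called. With DESeq2, 6.81% of 12089 features were called as higher, and 4 p53 pathway rows were called, of which 3 were shared with edgeR and Phlda3 stood in place of Btg2.

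Compared per length, the p53 pathway genes spanned a wide range. In si-NC the mean FPKM was 394.4 ± 14.6 for Phlda3, 324.0 ± 9.46 for Ccng1, 223.3 ± 10.5 for Bax, 74.3 ± 0.916 for Btg2 and 34.3 ± 0.377 for the unannotated row across Tp53inp1 (SD, n = 3). Aen followed at 3.87 ± 0.494 for its annotated row and 4.07 ± 0.569 for its unannotated row, and the unannotated row across Cdkn1a was at 1.96 ± 0.304. Only the rows of Aen overlapped each other in FPKM, and the order of the genes was the same in the libraries labelled si-DYRK1A, from Phlda3 at 443.7 ± 42.0 to the unannotated row across Cdkn1a at 3.22 ± 0.521. The largest log2 fold change was therefore at the least abundant of the tested rows. These FPKM values are levels of rows. The row across Cdkn1a also covers another annotated gene, and the split of reads between the rows of Aen is uncertain. For these genes the level of the gene itself is therefore not known.

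The rest of the pathway was read from lists of p53 regulators and targets, written with earlier results of these data known. Mdm4, a relative of Mdm2 that also inhibits p53, was listed at 0 under its name, and the unannotated row across it had a log2 fold change of 0.11 (edgeR adjusted p = 0.124). Of 25 regulators listed, 10 could be tested under their own names. Of these, 3 were called as higher and 0 as lower, beside 8.03% and 7.19% of all features, with a median log2 fold change of 0.04. The 3 were Atr, a kinase that senses replication stress, Chek2, a checkpoint kinase, and the ribosomal protein gene Rpl11. Atr and Chek2 both had a log2 fold change of 0.29, with edgeR adjusted p = 0.00144 and 0.0208. Rpl11 rested on 15 to 52 counts (0.87, edgeR adjusted p = 0.0381), with means of 2.44 CPM in si-NC and 4.51 CPM in si-DYRK1A. The ribosomal protein genes Rpl4 and Rpl6 were at 10.99 and 11 on the log2 CPM scale. Whether the row of Rpl11 holds most reads of that gene is not known. With a library left out in turn, Chek2 was called in 3 of 6 fits and Rpl11 in 1, with an adjusted p of up to 0.0897 without si-DYRK1A replicate 2 and up to 0.17 without si-NC replicate 1, and the log2 fold change of Rpl11 was 1.32 without si-NC replicate 3.

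Of 36 tested targets of p53 that are not among the 9 genes, 8 were called as higher and 4 as lower, or 33.3% called beside 15.2% of all features, with a median log2 fold change of 0.04. Among 8 targets in arrest and feedback, the polo-like kinase gene Plk2 rose by 0.26 on the log2 scale (edgeR adjusted p = 0.000185), as did Rprm (0.71, adjusted p = 0.0059), a gene linked to G2 arrest, and Zfp365 (0.24, adjusted p = 0.0162), whereas Plk3 fell by 0.55 (adjusted p = 0.000188). Ppm1d, the phosphatase that switches off p53 signalling, had a log2 fold change of 0.03 (adjusted p = 0.870). Among 8 targets in cell death tested under their own names, 1 was called, Perp (0.20, edgeR adjusted p = 0.0126). Pmaip1, which encodes the BH3-only protein NOXA, was at 0.05 (edgeR adjusted p = 0.595). A further 4 targets in cell death were not tested by name but were covered by an unannotated row. Among 7 targets in DNA repair and nucleotide supply, the sliding clamp gene Pcna was called (0.27, adjusted p = 0.000314). Pcna also serves DNA replication.

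Among 13 targets in metabolism, stress and secretion, 3 were called in each direction, beside 8.03% of all features called as higher and 7.19% as lower. Tgfa (0.34, edgeR adjusted p = 0.0108), Sulf2 (0.30, adjusted p = 0.0118) and Rps27l (0.22, adjusted p = 0.0148) rose. Aldh4a1 (-0.27, adjusted p = 0.00105), the glutathione peroxidase gene Gpx1 (-0.17, adjusted p = 0.0153) and Fdxr (-0.40, adjusted p = 0.0438) fell, and Gdf15, a secreted stress factor, was at 0.04 (adjusted p = 0.801). With a library left out in turn, the calls of Zfp365, Perp and Gpx1 held in 3 of 6 fits, those of Sulf2 and Rps27l in 4, that of Tgfa in 5 and that of Fdxr in 1. The highest adjusted p was 0.0794 for Zfp365 and 0.0595 for Tgfa, both without si-NC replicate 1, and 0.0606 for Perp without si-NC replicate 3. It was 0.0668 for Gpx1, 0.153 for Fdxr and 0.0781 for Rps27l without si-DYRK1A replicate 1, and 0.066 for Sulf2 without si-DYRK1A replicate 2.

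Calls in the families around the p53 pathway genes are given beside the 15.2% of all features that were called. Of 8 tested BCL2 family genes, 1 was called, the antiapoptotic Bcl2a1 (0.51, edgeR adjusted p = 0.000191), with a median of 0.03, and Bcl2 was at 0.00 (adjusted p = 0.995). Mcl1 was not matched. Of 8 genes of the apoptosome, the caspases and their inhibitors, 0 were called by edgeR, DESeq2 or limma-voom, with a median of -0.05, and 2 had an unadjusted p below 0.05 in edgeR, Casp8 and Diablo (named after their values were seen). Casp8, an initiator caspase gene, was at -0.37 (edgeR adjusted p = 0.0517), and it was called as lower when the counts of overlapping unannotated rows were summed for all genes (-0.37, adjusted p = 0.0476). Of 9 tested paralogs of the p53 pathway genes, Btg1, a relative of Btg2, was higher (0.20, adjusted p = 0.00511, and adjusted p = 0.0512 without si-NC replicate 1) and Tp53inp2, a relative of Tp53inp1, was lower (-0.21, adjusted p = 0.0024), with a median of 0.10.

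**Figure D4:**
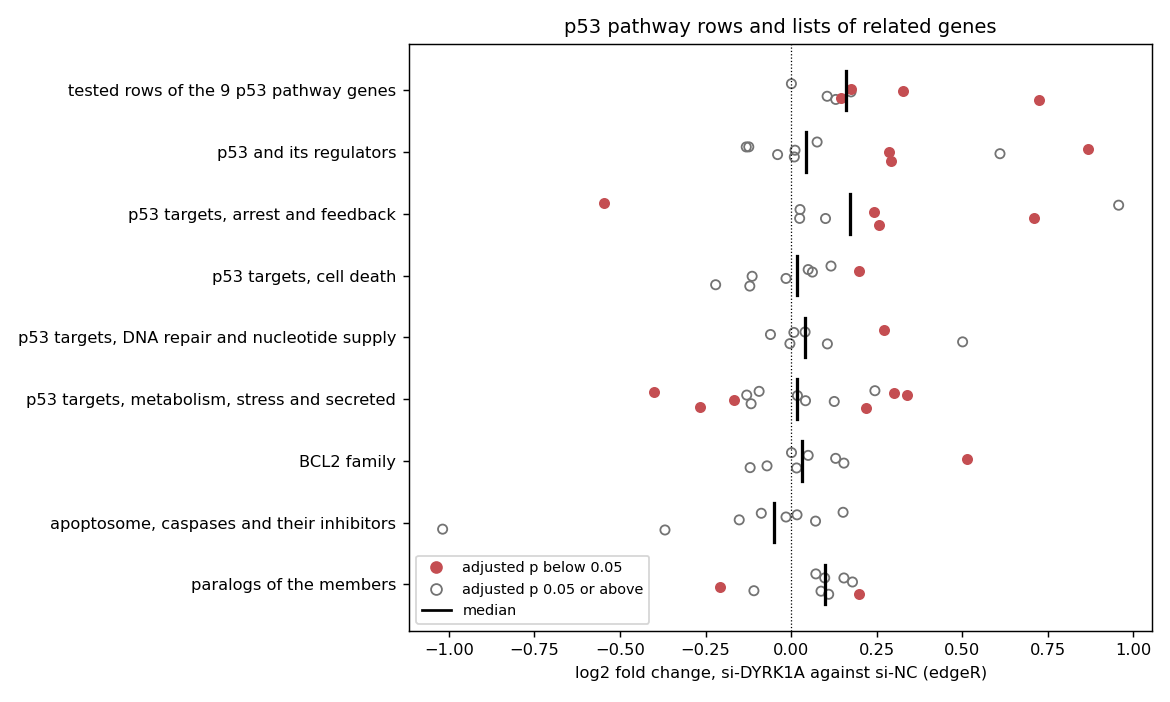
Log2 fold change (edgeR) of the tested rows of the 9 p53 pathway genes and of 8 lists of related genes, 1 point per row or gene, in red where the adjusted p was below 0.05, with black lines at the medians. The p53 pathway rows lie at or above 0 with a median of 0.16, and the list medians run from -0.05 for the apoptosome and caspases to 0.17 for the targets in arrest and feedback.

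Markers of the cell types in the culture differed between the groups as well. Their calls are given beside the 15.2% of all features that were called. Summed over 12 cardiomyocyte markers, the level was 20370 to 21080 CPM in si-NC and 23770 to 24590 CPM in the libraries labelled si-DYRK1A, with 3 of 6 tested markers called as higher (Actc1, Actn2 and Nppa). Most of this sum, and of its rise, came from Actc1 (means of 9976 CPM in si-NC and 10880 CPM in si-DYRK1A) and Nppa (7557 and 9782 CPM). The defining markers Myh6, Myh7, Tnni3 and Myl2 were listed at 0 under their names, each with an unannotated row across it, so that the label is checked by the remaining markers. The row across Myh6 and Myh7, which spans 7 genes, had a log2 fold change of -0.11 (edgeR adjusted p = 0.680). The rows across Tnni3 (178 to 243 counts) and Myl2 (50 to 79 counts) were at -0.02 and -0.04 (edgeR adjusted p = 0.954 and 0.915). The tested marker Tnnt2 was at -0.14 on 111 to 148 counts (edgeR adjusted p = 0.595). Such low counts limit what these rows can show. The more abundant Tnnc1 (16183 to 19324 counts) was at 0.04, and Ttn was at 0.19 (edgeR adjusted p = 0.592 and 0.248). The sum over 8 fibroblast markers was 21530 to 26240 CPM in si-NC and 20370 to 21110 CPM in si-DYRK1A, with 1 marker at 0 and 2 of 6 tested called as higher (Postn and Lum). The lower sum came from Col1a1, with means of 14340 CPM in si-NC and 11110 CPM in si-DYRK1A (edgeR adjusted p = 0.0869). By contrast, 5 of the 6 tested fibroblast markers had a log2 fold change above 0. The sum over 6 endothelial markers was 164.2 to 180.1 CPM in si-NC and 131.8 to 137.8 CPM in si-DYRK1A, with 0 markers at 0 and 3 of 6 called as lower (Cdh5, Tek and Tie1). Smooth muscle markers (555.6 to 562.7 and 544.8 to 568.6 CPM, 4 of 6 at 0) and macrophage markers (157.7 to 179.3 and 152.1 to 180.0 CPM, 1 of 8 at 0) overlapped in their sums, with Cd163 called as higher. Nearly all of the smooth muscle sum came from Cnn1 (means of 556.4 CPM in si-NC and 553.7 CPM in si-DYRK1A). Tagln, the other tested smooth muscle marker, had means of 2.74 CPM in si-NC and 1.72 CPM in si-DYRK1A. With a library left out in turn, the calls of Actc1 and Cdh5 held in 3 of 6 fits and that of Cd163 in 5. The part of these shifts in the levels of the p53 pathway genes was not tested, and in bulk RNA fewer cells of a type and less RNA per cell cannot be told apart.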

How the data were processed

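RNA enriched for mRNA was sequenced in 3 si-NC and 3 si-DYRK1A libraries. The authors aligned the read pairs with HISAT2 (build Rnor_6.0) and deposited raw counts per feature, and FPKM values, which are counts per transcript length scaled by library. The submitters' processing notes instead list Bowtie 0.12.2 and the mouse build mm8, which do not match the rat identifiers of the table. The sources used here do not give the counting tool, the annotation release or how strand was handled, so that antisense reads may be included.

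Groups and replicate numbers came from the labels. Counts were tested with edgeR 4.0.16 in R 4.3.3 (TMM, filterByExpr with a minimum count of 10 and a total of 15, robust quasi-likelihood fit, two-sided, Benjamini-Hochberg over all features, threshold 0.05). CPM values use TMM library sizes. Single values were compared by exact permutation tests. P-values measure only the spread between these libraries. Unannotated rows were matched with GenomicRanges 1.54.1. The alternatives were DESeq2 1.42.0, RLE or library-size scaling, no filter, a minimum of 10 counts per library, a replicate block, leaving out each library, limma 3.58.1 (voom, or log2 of FPKM plus 1 or 0.1 for features with FPKM above 0.5 in 3 libraries), locus sums (unannotated rows covering at least 50% of 1 gene only) and a threshold of 0.01. The test was checked on simulated data. The members and lists were chosen with earlier results of these data known; named genes were the 9 members, their unannotated rows, Dyrk1a, Mdm4, Pmaip1, Gdf15, Ppm1d, Bcl2, Mcl1 and, per list, up to 3 called genes with the smallest p in each direction. The rule also names 1 further gene, which is not reported here. Of 117 genes in 8 pathway lists, 111 were matched.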

Additional observations from a re-analysis of the deposited data

How the results depend on the processing

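The counts of called p53 pathway rows stayed at 3 to 4 and those of rows that do not overlap at 4 to 6 over the alternatives. With locus sums these counts were 3 and 4, but both leave out the unannotated row across Tp53inp1, which was merged into its gene. No log2 fold change changed sign except that of the unannotated row across Aen. Its values were -0.0039 with DESeq2, -0.0042 with RLE scaling, -0.0254 with library size only, -0.0083 with no filter, -0.0011 and -0.00027 with limma on FPKM plus 1 and plus 0.1, and -0.0996 to 0.1089 with a library left out. Features called numbered 2360 (1245 higher, 1115 lower), and 1199 (662 and 537) or 1180 (655 and 525) with limma on FPKM plus 1 or 0.1, 1307 (723 and 584) at an adjusted p below 0.01, 823 higher with DESeq2, and 1614 to 2210 (854 to 1123 higher, 746 to 1087 lower) with a library left out. In the 8 pathway lists, 13 genes were called as higher and 5 as lower, against 8 higher with DESeq2, 6 higher with limma on either FPKM scale and 3 lower with 0.1 added, 6 and 3 at an adjusted p below 0.01, and 6 to 13 and 3 to 6 with a library left out (6 higher and 3 lower without si-NC replicate 1, 3 lower without si-DYRK1A replicate 1, 8 higher without si-DYRK1A replicate 2).

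The replicate numbers were not used to pair the samples in the main test. The deviations of same-numbered libraries from their group means correlated at 0.0631, -0.024 and -0.007. Those of differently numbered libraries correlated at -0.0585 to 0.0655. With 3 libraries per group, such values cannot tell whether same-numbered libraries shared a cell preparation. With the replicate number as a block, 2269 features (1193 higher, 1076 lower) and 3 p53 pathway rows were called, and Btg2 missed the threshold (edgeR adjusted p = 0.0618). Scaling moved the median log2 fold change of all features from 0.002 to -0.0031 (RLE) or -0.0239 (library size only). Depth limits what is said of Mdm2 and of both rows of Aen.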

Other observations

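Several other p53 targets, like Cdkn1a, Mdm2 and Tp53inp1, had nearly all their counts in an unannotated row. With the counts of unannotated rows added to those of the single gene they cover, 43 targets of p53 outside the 9 genes could be tested, of which 11 were called as higher and 4 as lower by edgeR, with a median log2 fold change of 0.04. Among all 15074 features tested on such sums, 1207 (8.01%) were called as higher and 1151 as lower. The target lists were written with earlier results of these data known. The 3 targets gained, named after their values were seen, were Zmat3, an RNA-binding protein gene (0.19, adjusted p = 0.0156), Eda2r, a receptor of the tumour necrosis factor family (0.29, adjusted p = 0.000278), and Ei24, whose unannotated row rested on 21 to 52 counts (0.90, adjusted p = 0.0243). Eda2r and Ei24 are on the list of targets in cell death, of which 10 were tested on such sums, with 3 called as higher and 0 as lower. Zmat3 and Eda2r were listed at 0 under their own names in all 6 libraries, while their unannotated rows had 1514 to 2042 and 1657 to 2259 counts. Cdkn1b, the gene for p27 and a paralog of Cdkn1a, was likewise listed at 0, and its locus sum was higher in the libraries labelled si-DYRK1A by 0.33 on the log2 scale (adjusted p = 0.03, 156 to 224 counts).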
